A study of Homo sapiens with 6 samples.

Results

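The 10 genes described here encode enzymes that modify and crosslink collagen, together with the chaperone that carries it: LOX, LOXL1, LOXL2 and LOXL4 of the lysyl oxidase family, the lysyl hydroxylases PLOD1 and PLOD2, the prolyl hydroxylase alpha subunits P4HA1, P4HA2 and P4HA3, and SERPINH1. They were chosen by symbol, by a rule that uses no measured value but with earlier results of these data known, and all 10 were found among the 63009 genes read from the expression table. RNA-seq libraries were made from ERRAS cells, which are IMR90 primary human lung fibroblasts that stably carry a RasV12 gene made inducible with tamoxifen. In the 3 Ras-induced samples RasV12 had been switched on for 4 days with tamoxifen, at 100 nM by the sample labels (the methods of the study give the dose otherwise), whereas the 3 control samples carried the same construct and were left uninduced. Cells of both groups were kept at 3% oxygen and arrested in mitosis with 1 μM dimethylenastron (DME), an inhibitor of the kinesin Eg5, and the detached cells were collected with a mitotic index above 90%. The controls are therefore mitotic cells too, and the comparison asks how transcripts of this enzyme group differ between mitotically arrested fibroblasts with and without activated Ras.

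Fibrillar collagen is built in the endoplasmic reticulum, where prolyl hydroxylases stabilise the triple helix and lysyl hydroxylases prepare lysines for later crosslinking. SERPINH1, also known as HSP47, is the collagen chaperone that binds the folded helix until it leaves the endoplasmic reticulum. Outside the cell the copper-dependent lysyl oxidases oxidise lysine and hydroxylysine residues of collagen and elastin, and the aldehydes so formed join into the crosslinks that give tissue its stiffness. Fibroblasts are a main source of all of these proteins, and several of the genes, LOX, PLOD2 and P4HA1 among them, are known targets of the hypoxia-inducible factors.

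Expression was given as FPKM, the number of fragments of a gene after scaling by its transcript length and by the size of the library, so levels of different genes can be compared per length. No read counts were used, and no absolute depth is given here. The study refers to a supplementary table of alignment statistics, from which no depth was taken. Steps between low FPKM values gave a relative depth of 0.845 to 1.17 across the 6 libraries, with the first control library set to 1. All 7 fibroblast markers passed the expression filter, and they summed to 4505 to 5048 FPKM in control and 3072 to 4182 FPKM in Ras-induced libraries. Of these markers THY1, a surface glycoprotein of fibroblasts, and COL1A2 fell, while FAP went from 39.0 to 66.3 FPKM without overlap (adjusted p = 0.0869, and 0.0101 without control library 3) and VIM, PDGFRA and PDGFRB were not called. COL1A1 went from 1345 to 550 FPKM without overlap (adjusted p = 0.0501). The endothelial markers summed to 14.6 to 16.6 FPKM in control and 4.83 to 5.37 FPKM in Ras-induced libraries, nearly all of it from TEK, while PECAM1 was listed at 0 throughout and CDH5, VWF and CLDN5 stayed near 0. Epithelial markers summed to 12.6 to 23.3 and 13.8 to 16.7 FPKM, mostly from KRT5 and CLDN4, neither of them called. In control library 3 KRT5 and CLDN4 measured 7.77 and 7.32 FPKM. EPCAM, under the filter, went from 1.24 to 0.288 FPKM without overlap, and CDH1 stayed near 0. Leukocyte markers stayed under 0.468 FPKM in sum, with CD3E at 0. The 6 mitotic markers summed to 1570.45 to 1634 FPKM in control and 1289 to 1432 FPKM in Ras-induced libraries. Of them 3, PLK1, CENPF and BUB1, fell, against 5.67% of all tested genes. The PLK1 call was lost without any 1 library other than control library 3 (adjusted p 0.0703 to 0.154), the BUB1 call without any 1 library (0.0681 to 0.113), and the CENPF call without Ras-induced library 1 or 3 or control library 2 (0.0501 to 0.0695). The part of these shifts in the values below was not tested.

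In Ras-induced mitotic cells the lysyl oxidases LOX, LOXL1 and LOXL2 fell, while no member of the group rose. Of the 10 genes, 3 passed the test (limma on log2(FPKM + 1), Benjamini-Hochberg adjusted p of 0.05 or less), all of them lower. Among the 13993 genes tested, 16.7% passed, 11.0% higher and 5.67% lower. Without adjustment, 5 of the 10 had p under 0.05, again all lower, against 33.6% of all tested genes in either direction, and the same 5 had control and Ras-induced libraries that did not overlap, all downward. The background of such a separation over the tested genes was 39.9%, made up of 12.8% downward and 27.1% upward. The median log2 change of the 10 genes was -0.47, compared with 0.10 for all tested genes, and 8 of the 10 lay below that median. With quantile normalization the balance of all calls moved from 1543 higher and 793 lower to 1044 higher and 1109 lower, and with upper-quartile scaling to 921 higher and 1101 lower, but the members called were lower under both. The study describes independent repeats of the experiment, whereas the sample labels do not name separate cultures, and p-values measure the spread between these libraries. In bulk RNA, fewer cells expressing a gene and less RNA per cell cannot be told apart.

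**Figure D1:**
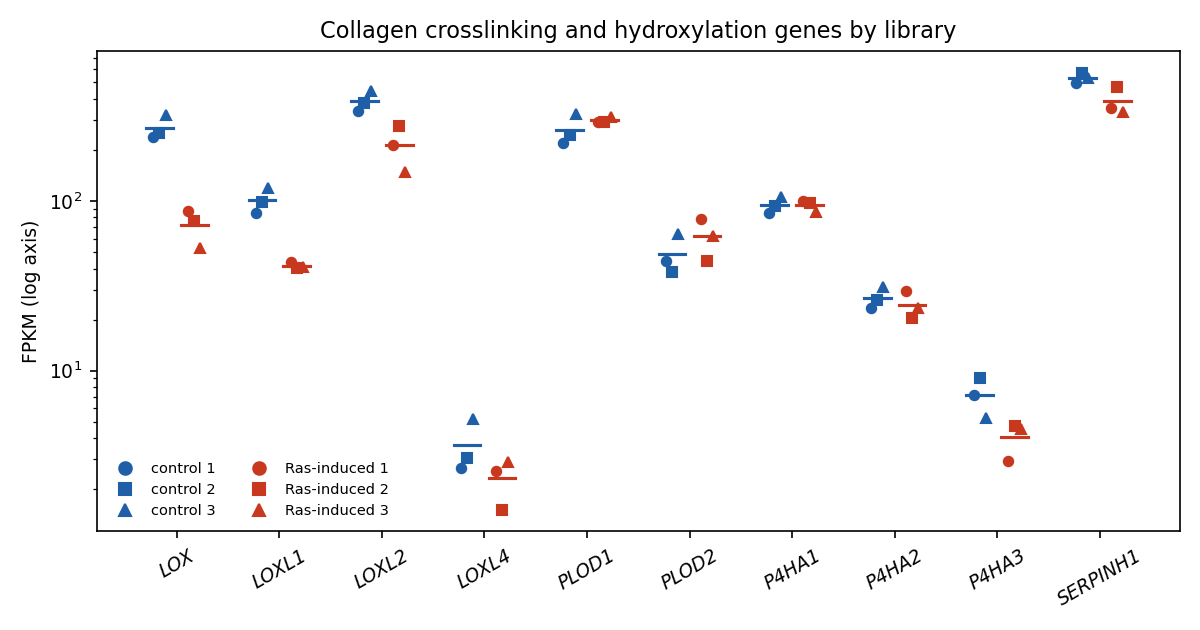
FPKM of the 10 genes on a log axis, with 1 point per library (blue control, red Ras-induced, symbol shape for the column number) and a bar at the group mean. LOX, LOXL1, LOXL2, P4HA3 and SERPINH1 have Ras-induced points that all lie below the control points, whereas the PLOD genes, P4HA1, P4HA2 and LOXL4 overlap.

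Promoter sequence is shown for 4 of the genes because they span the range of matches to the core of the hypoxia response element and because LOX and LOXL1 fell together while PLOD2 and P4HA1 were not called. The sequences are the 250 bases before the start of the RefSeq transcript (GRCh38.p14, 5′ to 3′ on the strand of the gene), and capitals mark the letters ACGTG or GCGTG or their reverse complements. The LOX window lies at chr5:122078260-122078509 on the minus strand and is the farthest upstream of 3 windows given for LOX. The LOXL1 window is chr15:73926212-73926461 on the plus strand. The PLOD2 window is chr3:146161185-146161434 and the P4HA1 window is chr10:73096867-73097116, both on the minus strand.
LOX: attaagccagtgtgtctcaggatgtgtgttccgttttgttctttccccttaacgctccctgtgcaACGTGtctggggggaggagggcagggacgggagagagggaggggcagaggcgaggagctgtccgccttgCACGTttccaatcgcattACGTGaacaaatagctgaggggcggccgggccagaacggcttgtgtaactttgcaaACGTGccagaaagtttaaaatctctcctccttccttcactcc
LOXL1: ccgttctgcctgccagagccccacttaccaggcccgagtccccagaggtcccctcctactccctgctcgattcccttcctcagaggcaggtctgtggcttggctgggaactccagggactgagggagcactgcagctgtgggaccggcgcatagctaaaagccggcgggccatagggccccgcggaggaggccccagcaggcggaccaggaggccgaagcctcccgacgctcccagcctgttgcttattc
PLOD2: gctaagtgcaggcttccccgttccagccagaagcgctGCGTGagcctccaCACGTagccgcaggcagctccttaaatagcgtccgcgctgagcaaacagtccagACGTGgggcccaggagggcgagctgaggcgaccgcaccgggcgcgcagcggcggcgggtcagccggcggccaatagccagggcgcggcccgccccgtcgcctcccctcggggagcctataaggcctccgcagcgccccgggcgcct
P4HA1: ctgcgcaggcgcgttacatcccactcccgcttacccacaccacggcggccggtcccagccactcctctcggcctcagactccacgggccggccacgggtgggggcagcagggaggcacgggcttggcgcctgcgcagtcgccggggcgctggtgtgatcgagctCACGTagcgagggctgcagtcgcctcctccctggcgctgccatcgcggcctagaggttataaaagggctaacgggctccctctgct

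LOX held 4 matches to this core, PLOD2 held 3, P4HA1 held 1 and LOXL1 held none. Of 27305 genes with such a window, 43.1% held at least 1 match and 7.89% held 3 or more. In LOX the matches began at positions -185, -116, -98 and -42 from the transcript start, and in P4HA1 the single match began at -86. Windows were searched for 8 of the 10 genes, not for LOXL2 or P4HA3. PLOD1 held 2 matches, and LOXL4, P4HA2 and SERPINH1 held none. The AP-1 site, searched as TGAGTCA and TGACTCA on both strands, was in none of the 8 windows and in 4.16% of all windows. The GC box GGGCGG occurred 6 times in LOXL4, 4 times in PLOD1 and 1 time each in LOX and PLOD2, with 42.3% of all windows holding it, and the TATA box TATAAA occurred only in P4HA1 among the 8, against 11.1% of all windows. These letter matches describe the windows and do not show that a factor binds there.

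LOX, the founding lysyl oxidase (ENSG00000113083; GRCh37 chr5:121398890-121414108, minus strand), was the member with the largest fall. It measured 238, 253 and 322 FPKM in the control libraries and 87.3, 76.5 and 52.8 FPKM in the Ras-induced libraries. Every Ras-induced value was therefore under every control value. The mean went from 271 ± 44.9 to 72.2 ± 17.6 FPKM (SD, n = 3 per group), which is 3.75-fold lower, and the log2 change was -1.91 with a standard error of 0.20 (adjusted p = 0.00368, from 0.00178 to 0.0165 over the alternative settings). LOX stood at the 97.7th percentile of tested genes in control cells and at the 87.6th in Ras-induced cells. SRFBP1 overlaps it on the opposite strand and the library kit does not mark strand, so reads shared by both cannot be told apart; SRFBP1 measured 9.67 FPKM in control and 11.7 FPKM in Ras-induced cells on average.

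LOXL1, the family member linked above all to elastic fibres (ENSG00000129038; GRCh37 chr15:74218330-74244478, plus strand), measured 85.2, 98.8 and 119 FPKM in control and 43.6, 40.3 and 40.8 FPKM in Ras-induced libraries. The Ras-induced libraries lay close together, well under the lowest control library. The mean fell 2.43-fold, from 101 ± 16.9 to 41.6 ± 1.75 FPKM (log2 change -1.25, standard error 0.13, adjusted p = 0.00305, from 0.00161 to 0.0168 over the alternatives). The overlapping antisense transcript LOXL1-AS1 had 5.81 FPKM in control and 5.88 FPKM in Ras-induced cells (adjusted p = 0.965).

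LOXL2, which crosslinks collagen of basement membranes (ENSG00000134013; GRCh37 chr8:23154410-23282841, minus strand), was the most abundant lysyl oxidase in both groups. It measured 341, 379 and 442 FPKM in control and 215, 278 and 148 FPKM in Ras-induced libraries. The groups did not overlap, but the Ras-induced libraries were spread widely. The mean was 387 ± 51.4 FPKM in control and 214 ± 64.6 FPKM in Ras-induced cells, a 1.81-fold fall (log2 change -0.89, standard error 0.23, adjusted p = 0.0431). ENTPD4, which overlaps LOXL2 on the same strand, had 22.4 FPKM in control and 24.5 FPKM in Ras-induced cells. The LOXL2 call was close to the threshold. It was lost without Ras-induced library 1 or 3 or any of the 3 control libraries, where the adjusted p was 0.0722 to 0.105, as well as without the expression filter (0.114), without a mean-variance trend (0.0589) and with a replicate block (0.064).

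LOXL4, the least abundant of the 10 genes, had 2.67, 3.05 and 5.18 FPKM in control and 2.55, 1.52 and 2.89 FPKM in Ras-induced libraries. The groups overlapped, and the log2 change of -0.47 did not pass the test (95% interval -1.09 to 0.15, adjusted p = 0.259). It was -0.24 without control library 3 and -0.28 without Ras-induced library 2. LOXL3, the remaining lysyl oxidase and outside the 10 genes, fell from 7.60 to 4.84 FPKM (log2 change -0.56, adjusted p = 0.022). The LOXL3 call was lost without Ras-induced library 1, 2 or 3 or control library 1 or 3 (adjusted p 0.0559 to 0.0786).

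**Figure D2:**
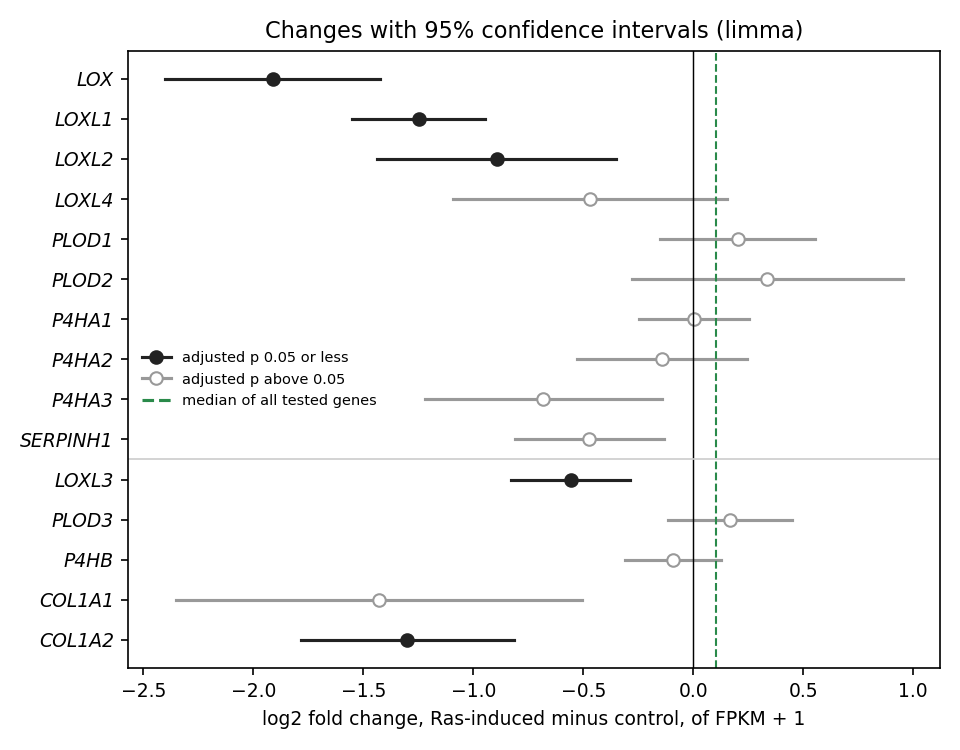
Log2 change of FPKM + 1, Ras-induced minus control, with its 95% confidence interval from limma, for the 10 genes above the grey line and 5 related genes below it. Filled points passed the adjusted p threshold, and the dashed line is the median of all tested genes at 0.10. The intervals of LOX, LOXL1, LOXL2, P4HA3 and SERPINH1 lie wholly below 0, of which the first 3 passed, while those of LOXL4, PLOD1, PLOD2, P4HA1 and P4HA2 span 0.

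The lysyl oxidase family was compared as a whole by summing the FPKM of LOX, LOXL1, LOXL2, LOXL3 and LOXL4 in each library. The sum was 674, 740 and 897 FPKM in control and 353, 400 and 250 FPKM in Ras-induced libraries. All Ras-induced sums were thus below all control sums. The mean was 770 ± 114 in control and 334 ± 77.0 in Ras-induced cells, 2.30-fold lower, and the exact permutation p of 0.1 is the smallest that 3 libraries against 3 can give.

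The makeup of this sum also differed between the groups. LOX made up 35.3, 34.2 and 35.9% of it in the control libraries and 24.7, 19.1 and 21.1% in the Ras-induced libraries. LOXL2 made up 50.5, 51.2 and 49.3% in control and 60.8, 69.3 and 59.3% in Ras-induced libraries. Neither share overlapped between groups. The mean share of LOX was 35.1 ± 0.90% in control and 21.7 ± 2.83% in Ras-induced cells, a difference of -13.5 percentage points, and that of LOXL2 was 50.3 ± 0.93 and 63.2 ± 5.39%, a difference of 12.8 points. The exact permutation p was 0.1 for each, and 0.21 after Benjamini-Hochberg adjustment over the 21 permutation tests of shares and collagen ratios. The shares of LOXL1, LOXL3 and LOXL4 overlapped between the groups. Shares of the same sum are bound to each other, so the differences of LOX and LOXL2 are not separate results. The level of LOXL2 itself was 1.81-fold lower in Ras-induced cells. A share within a library is not moved by a single scaling factor per library, and shares were not computed after quantile normalization.

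**Figure D3:**
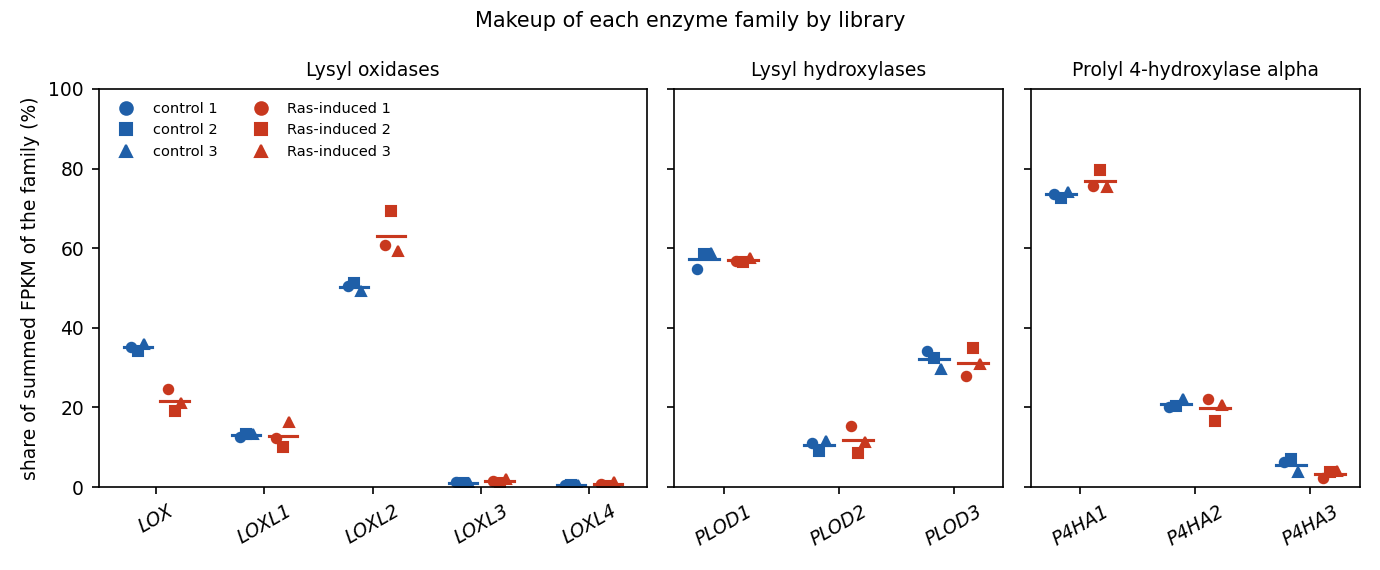
Share of each gene in the summed FPKM of its family, in percent, with 1 point per library and a bar at the group mean. LOX is at 19.1 to 24.7% in the Ras-induced libraries against 34.2 to 35.9% in control, the LOXL2 share moves the other way, and the lysyl hydroxylase shares overlap.

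The lysyl hydroxylases were not called in either direction. PLOD1, which hydroxylates lysines within the collagen helix, measured 219, 246 and 326 FPKM in control and 294, 290 and 315 FPKM in Ras-induced libraries. The third control library was above all Ras-induced ones. Its log2 change was 0.20 (95% interval -0.15 to 0.56, adjusted p = 0.383), but without control library 3 it was 0.37 and passed the test as a rise (adjusted p = 0.0434), and without control library 1 it was 0.082.

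PLOD2, which hydroxylates the telopeptide lysines from which the most stable crosslinks form, measured 44.01, 38.0 and 63.9 FPKM in control and 78.7, 44.3 and 62.6 FPKM in Ras-induced libraries. Its values varied widely within both groups, and its log2 change was 0.34 (95% interval -0.28 to 0.95, adjusted p = 0.407). It ranged from 0.15 without Ras-induced library 1 to 0.55 without Ras-induced library 2, and was 0.18 without control library 2 and 0.55 without control library 3. PLOD3, the third lysyl hydroxylase, had 146 FPKM in control and 164 FPKM in Ras-induced cells (adjusted p = 0.363). The family sum was 458 ± 84.2 FPKM in control and 526 ± 18.5 FPKM in Ras-induced cells (exact permutation p = 0.4). PLOD1 made up 57.3 ± 2.23% of it in control and 57.0 ± 0.51% in Ras-induced cells.

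The alpha subunits of the prolyl hydroxylase that acts on collagen carry its catalytic site. P4HA1, the main subunit here, measured 85.3, 93.9 and 105 FPKM in control and 100.3, 98.0 and 86.0 FPKM in Ras-induced libraries. The groups covered nearly the same range. Its log2 change was 0.00 (95% interval -0.25 to 0.25, adjusted p = 0.988), a bound that is narrow beside the changes of the lysyl oxidases, and its sign changed with the scaling and with the library left out.

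P4HA2 measured 23.3, 26.2 and 31.3 FPKM in control and 29.4, 20.4 and 23.4 FPKM in Ras-induced libraries (log2 change -0.14, 95% interval -0.53 to 0.24, adjusted p = 0.573). The groups overlapped, and the change was -0.28 without Ras-induced library 1, -0.24 without control library 1, -0.027 without Ras-induced library 2 and -0.033 without control library 3. PDLIM4 lies on the opposite strand within the P4HA2 locus and rose from 34.7 to 78.6 FPKM (adjusted p = 0.00686), and without strand information reads shared by both genes cannot be told apart. P4HA3, a low-abundance subunit, measured 7.16, 9.04 and 5.25 FPKM in control and 2.93, 4.72 and 4.53 FPKM in Ras-induced libraries. Its groups did not overlap, but its log2 change of -0.68 did not pass the test (standard error 0.22, adjusted p = 0.0848). PPME1 overlaps P4HA3 on the opposite strand with 36.9 FPKM in control and 40.9 FPKM in Ras-induced cells, so shared reads cannot be told apart there either.

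The summed alpha subunits reached 129 ± 12.8 FPKM in control and 123 ± 9.33 FPKM in Ras-induced cells (exact permutation p = 0.6). P4HA1 made up 73.7, 72.7 and 74.2% of the sum in control and 75.6, 79.6 and 75.5% in Ras-induced libraries, without overlap (exact permutation p = 0.1, adjusted 0.21). P4HB, protein disulfide isomerase and the beta subunit of the enzyme, had 763 FPKM in control and 714 FPKM in Ras-induced cells (adjusted p = 0.524).

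SERPINH1 was the most abundant of the 10 genes in both groups, at the 98.9th percentile of tested genes in control and the 98.4th in Ras-induced cells. It measured 493, 571 and 531 FPKM in control and 354, 471 and 335 FPKM in Ras-induced libraries. The groups did not overlap, with Ras-induced library 2 closest to the controls. The mean was 532 ± 39.1 FPKM in control and 387 ± 73.9 FPKM in Ras-induced cells, and the log2 change of -0.47 (standard error 0.14) did not pass the test (adjusted p = 0.0657). It passed without Ras-induced library 2 (adjusted p = 0.0198) and under quantile normalization (0.0224) and upper-quartile scaling (0.0383).

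In control cells the order of mean levels was SERPINH1, LOXL2, LOX, PLOD1, LOXL1, P4HA1, PLOD2, P4HA2, P4HA3 and LOXL4. In Ras-induced cells PLOD1 moved from rank 4 to rank 2 and LOX from rank 3 to rank 5. The control ranges of LOX and PLOD1 overlapped, as did those of LOXL1 and P4HA1, so their order was not settled by these libraries. In the Ras-induced group the range of LOX overlapped those of P4HA1 and PLOD2. No other neighbours in either order overlapped.

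The type I collagen genes, the main substrates of these enzymes, were lower in the same libraries. COL1A2 fell from 924 to 379 FPKM (log2 change -1.30, adjusted p = 0.0101). COL1A1 went from 1345 to 550 FPKM and missed the threshold (log2 change -1.43, adjusted p = 0.0501), which it passed without Ras-induced library 2 (adjusted p = 0.0246), under quantile (0.0368) and upper-quartile scaling (0.0437), with a pseudocount of 0.1 (0.0386) and with a filter at 5 FPKM (0.0343). Ras-induced library 3 was the lowest of its group for COL1A1, COL1A2, LOX, LOXL2 and SERPINH1, and Ras-induced library 2 was the highest for COL1A1, COL1A2, LOXL2 and SERPINH1 but not for LOX or LOXL1.

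**Figure D4:**
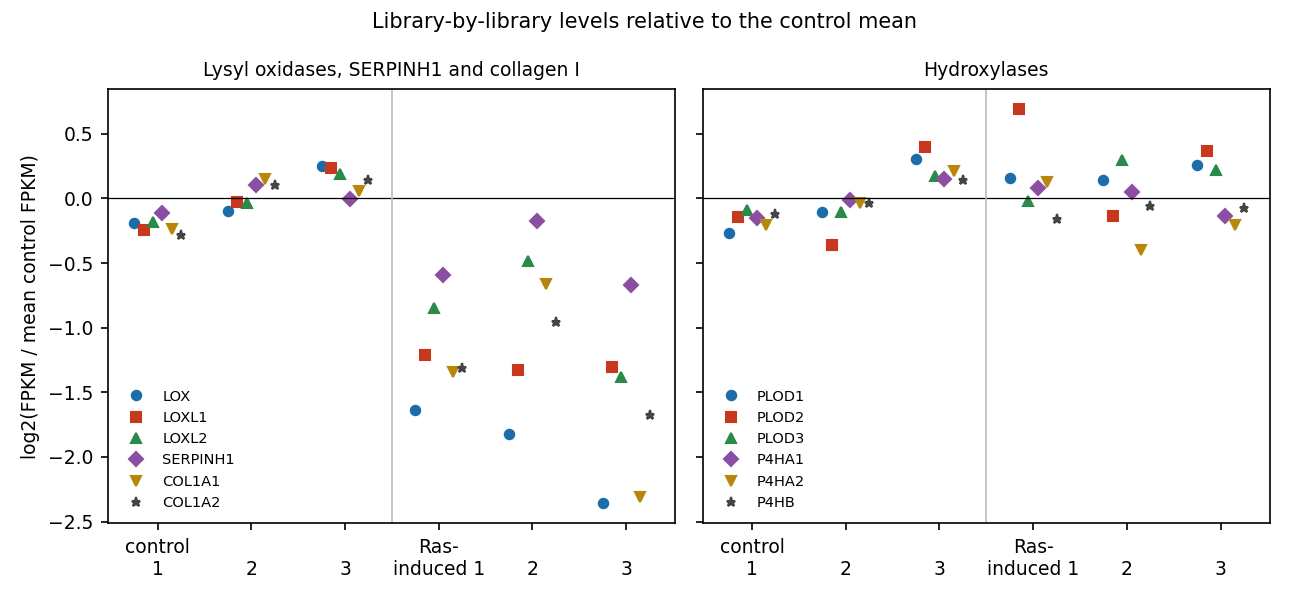
Log2 of the FPKM in each library over the control mean of the gene, for lysyl oxidases, SERPINH1 and type I collagen (left) and hydroxylases (right), with 1 point per gene and library. In the left panel all Ras-induced points lie below 0 and differ by library, while in the right panel they scatter on both sides of 0.

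Each gene was next set against type I collagen by dividing its FPKM by the mean FPKM of COL1A1 and COL1A2 in the same library. LOX had 0.250, 0.203 and 0.267 FPKM per FPKM of collagen in control and 0.193, 0.116 and 0.189 in Ras-induced libraries, without overlap. The geometric mean ratio in Ras-induced cells was 0.677 of that in control (log2 difference -0.56, exact permutation p = 0.1, adjusted 0.21). Without Ras-induced library 2 the log2 difference was -0.32. LOX was the only one of the 10 with a lower mean ratio.

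That count has to be read against all genes, because 98.4% of 13475 tested genes had a higher mean ratio in Ras-induced cells and 85.1% were higher without overlap, 85.4% counting either direction. Among the 10 genes, 7 did not overlap, LOX lower and 6 higher, namely LOXL2, PLOD1, PLOD2, P4HA1, P4HA2 and SERPINH1. The median log2 difference was 0.81 over the 10 genes (0.52 without Ras-induced library 3), compared with 1.48 over all genes. PLOD1 (2.97-fold) and PLOD2 (3.27-fold) lay above the 2.79-fold of the median gene, and P4HA1 (2.58-fold), P4HA2 (2.32-fold), SERPINH1 (1.85-fold) and LOXL2 (1.38-fold) lay below it. LOXL1 kept close to collagen, at 0.0888 in control and 0.0950 in Ras-induced cells, and its groups overlapped. The sign of the LOXL1 difference depended on the library left out (log2 difference -0.21 to 0.42).

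**Figure D5:**
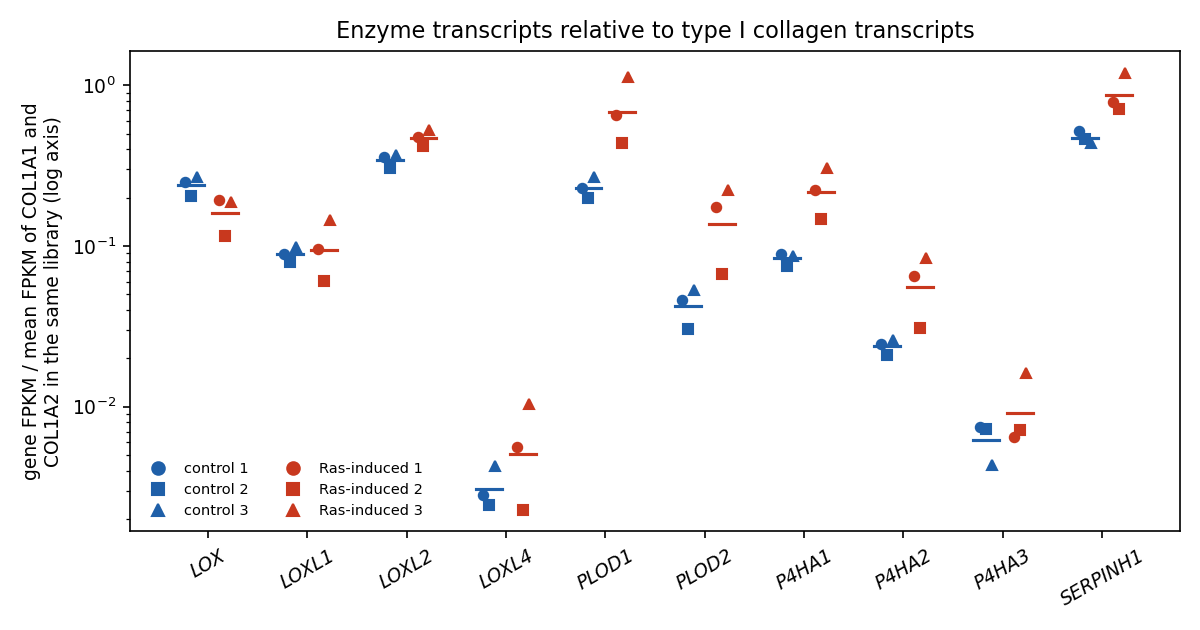
FPKM of each gene divided by the mean FPKM of COL1A1 and COL1A2 in the same library, on a log axis, with 1 point per library and a bar at the geometric mean. LOX is the gene whose Ras-induced ratios lie below the control ratios, LOXL1 overlaps, and the PLOD genes, P4HA1, P4HA2, LOXL2 and SERPINH1 lie above.

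Of 14 other enzymes of the pathway that were tested, 3 fell, none rose and 11 were not called, with a median log2 change of -0.08. Over all tested genes, 5.67% were called lower and 11.0% higher. COLGALT1, which adds galactose to hydroxylysine, fell from 87.1 to 52.6 FPKM (log2 change -0.72, adjusted p = 0.0088, at most 0.0378 over the alternatives). P3H2, a prolyl hydroxylase that acts on another carbon of proline, fell from 51.5 to 25.8 FPKM (log2 change -0.97, adjusted p = 0.0167, and 0.0501 without control library 2). LOXL3 was the other one.

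Among the substrates, 7 of 8 lay below the median change of all genes. Of the 8 fibrillar collagen and elastin genes, 4 fell and none rose, against 5.67% lower and 11.0% higher over all tested genes. Their median log2 change was -1.28. The number that fell was 2 without control library 1 or 2 and 6 without Ras-induced library 2. COL5A1, one of the 4, fell from 130.4 to 64.5 FPKM (adjusted p = 0.0429), a call lost without any 1 library other than Ras-induced library 2 (0.0578 to 0.12). ELN, which encodes elastin, fell from 18.8 to 0.270 FPKM (log2 change -3.57, adjusted p = 0.0128, at most 0.0479 over the alternatives). Its control libraries were spread widely, at 12.2, 38.7 and 5.45 FPKM, and the control mean was 8.83 FPKM without control library 2. COL5A2 fell from 179 to 74.0 FPKM (adjusted p = 0.0142), a call that was lost without control library 1 (0.0506) or 2 (0.0512).

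Of 5 tested procollagen processing genes, 1 rose and 2 fell, against 11.0% higher and 5.67% lower over all tested genes. FURIN, the convertase that activates many secreted proteases, rose from 44.8 to 62.6 FPKM (adjusted p = 0.0365), a call lost without any 1 of the 6 libraries (0.0504 to 0.104) and under quantile (0.0538) and upper-quartile scaling (0.0584). BMP1, the procollagen C-proteinase that also activates LOX, fell from 29.1 to 17.5 FPKM (adjusted p = 0.0242), and ADAMTS2, a procollagen N-proteinase, fell from 27.5 to 13.1 FPKM (adjusted p = 0.0476). The BMP1 call was lost without Ras-induced library 1 or 3 or control library 1 or 2 (0.0586 to 0.0781). The ADAMTS2 call was lost without any 1 library other than Ras-induced library 2 (0.0561 to 0.13).

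Of 7 matrix proteins that partner with lysyl oxidases, 1 rose and 2 fell, against 11.0% higher and 5.67% lower over all tested genes. POSTN, encoding periostin, which helps BMP1 to activate LOX, rose from 40.7 to 184 FPKM (log2 change 2.36, adjusted p = 0.0236), but not without Ras-induced library 1, 2 or 3 (0.0658 to 0.0699). EFEMP2, encoding fibulin-4, which brings LOX to elastin, fell from 156 to 83.0 FPKM (log2 change -0.91, adjusted p = 0.00446, at most 0.0215 over the alternatives). FMOD, encoding the collagen-binding fibromodulin, fell from 2.65 to 0.838 FPKM (adjusted p = 0.0262), a call lost without any 1 library other than Ras-induced library 1 (0.0518 to 0.0854). The copper importer SLC31A1 rose from 22.1 to 30.7 FPKM (adjusted p = 0.0385) and was lost without any 1 library (0.0641 to 0.12) and under both scalings (0.0816 and 0.0871). It was the only one of 5 tested copper, ascorbate and iron supply genes to pass, against 16.7% of all tested genes.

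Other hypoxia-inducible genes were either higher or not called. Of 10 tested, 5 rose and none fell, against 11.0% higher and 5.67% lower over all tested genes. Their median log2 change was 0.66. The number that rose was 2 without Ras-induced library 1 or 3 or control library 2, and 3 without control library 1 or under quantile or upper-quartile scaling. VEGFA, the angiogenic growth factor, rose from 10.4 to 32.0 FPKM (log2 change 1.52, adjusted p = 0.00519, at most 0.0233 over the alternatives). PFKFB4, a regulator of glycolysis, rose from 4.201 to 10.1 FPKM (log2 change 1.09, adjusted p = 0.00451, at most 0.0227). SLC2A1, LDHA and ADM were among the 5 that were not called.

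Of 7 genes of the oxygen-sensing pathway, 2 rose and 1 fell, against 11.0% higher and 5.67% lower over all tested genes. HIF1A rose from 76.8 to 98.2 FPKM (adjusted p = 0.0356) and EGLN1, a prolyl hydroxylase that marks HIF alpha subunits for degradation, rose from 20.3 to 34.6 FPKM (adjusted p = 0.0192). EPAS1, encoding HIF-2 alpha, fell from 45.7 to 20.5 FPKM (adjusted p = 0.0388). The HIF1A call was lost without Ras-induced library 1 or 3 or control library 1 or 2 (0.0917 to 0.12), and under both scalings (0.104 and 0.132). The EGLN1 call was lost without Ras-induced library 3 (0.0639) or control library 2 (0.0658), and the EPAS1 call without any 1 library other than control library 2 (0.0615 to 0.108).

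The genes most like LOX over the 6 libraries were found by the root mean square difference of log2(FPKM + 1), after centring each gene on its own mean. LUM, encoding the collagen-binding proteoglycan lumican, was the closest at 0.1005 log2 units, with 43.3, 47.2 and 58.0 FPKM in control and 15.1, 13.4 and 7.30 FPKM in Ras-induced libraries. As with LOX, the third library was the highest control and the lowest Ras-induced one. RAMP1, an accessory protein of calcitonin family receptors, followed at 0.186 log2 units and C1S, a complement protease, at 0.199 log2 units.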

How the data were processed

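RNA-seq of poly(A) RNA from 6 libraries of IMR90 ERRAS cells was analysed, 3 control and 3 Ras-induced. Per the labels, libraries were made with a TruSeq RNA kit, which does not mark strand, and processed with Trim Galore 0.3.0, TopHat2, Cufflinks and Cuffdiff on hg19. FPKM values per gene and library were deposited by the authors. Its columns give the group and a number but no sample, so they were mapped to groups only. The table listed 63129 genes; 120 with more than 6 values were left out, and 18 unnamed columns were not used. A deposited comparison of the groups, with fold changes and p-values, was not used.

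The filter kept 13993 genes whose mean reached 1 FPKM. Their log2(FPKM + 1), a scale that understates changes of low genes, was fitted with limma 3.58.1 in R 4.3.3 (lmFit, trended eBayes). Two-sided p-values were adjusted by Benjamini-Hochberg across these genes, with a threshold of 0.05. The procedure was tested on simulated data. Shares and collagen ratios were tested by two-sided exact permutation, for which 0.1 is the smallest p. Coordinates are from GENCODE 44 lifted to GRCh37, and promoters from RefSeq. Python 3.11.15 made tables and figures.

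Members and lists were chosen with earlier results of these data known. Named are all members, their direct relatives LOXL3, PLOD3 and P4HB, COL1A1 and COL1A2, the 2 largest rises and 2 largest falls among called genes of each other list, and the 3 genes most like LOX. COL5A1, uncalled hypoxia-inducible genes, overlapping genes and markers were named after their values were seen.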

Additional observations from a re-analysis of the deposited data

How the results depend on the processing

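LOX and LOXL1 stayed lower and past the threshold under every alternative, namely a pseudocount of 0.1, no filter, a mean of at least 5 FPKM, quantile and upper-quartile scaling, no trend, a replicate block and each library left out. The number of members called stayed between 2 and 4. Of 129 alternative values of the log2 changes of members, 110 kept their direction and side of the threshold, 8 lost a call (all LOXL2), 5 gained one (SERPINH1 and PLOD1) and 6 changed sign (all P4HA1). The P4HA1 change was -0.061 under quantile normalization, -0.11 under upper-quartile scaling and -0.069 to 0.079 with 1 library left out. Over all tested genes, 2336 were called, 1330 without the filter, 548 with an absolute log2 change of at least 1, and 998 to 1953 with 1 library left out; the lowest count was reached without Ras-induced library 3 and also without control library 2. Among the other enzymes, 5 were called under upper-quartile scaling and 0 with an absolute log2 change of at least 1. The cause was not tested.

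Deviations of same-numbered libraries correlated at -0.003, 0.043 and 0.048, and those of different-numbered libraries at -0.068 to 0.031. Correlations this weak cannot settle whether the column numbers pair the libraries. With a replicate block 2310 genes were called, and 3 members, of which SERPINH1 (adjusted p = 0.0414) was called in place of LOXL2 (0.064). COL1A1 also passed with the block (0.0456), while HIF1A (0.0579) and PLK1 (0.0643) did not. The median log2 difference of the member ratios, Ras-induced minus control, was 0.87 against COL1A1 alone and 0.70 against COL3A1. Against COL1A1 and COL1A2 together it was 0.52 to 1.17 with 1 library left out, the lowest without Ras-induced library 3. Without read counts no depth limit can be given, and with 3 libraries a group the permutation tests cannot pass the threshold.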
